A study of Bos taurus with 18 samples.

Results

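Of the 21668 genes in the deposited table of bovine oocytes and embryos, 10 that code for secreted or cell-surface proteins are described here. They are named CXCL2, XCL2, PCDH8, PCDH17, PLVAP, A2ML1, MFAP5, PGLYRP2, LOC100336918 (RefSeq symbol NELL1) and LOC789503 (MUC5B). They were picked as genes whose RNA appears at 8 or 16 cells, from their levels in all 18 libraries, so those levels are given as a description with no test. The study sequenced RNA of germinal vesicle (GV, immature) oocytes, metaphase II (MII) oocytes matured in vitro, and in vitro produced embryos of 4, 8 and 16 cells and blastocysts, with 3 libraries a stage. Oocytes or embryos were pooled by 10 for each library. Oocytes were German Simmental, and embryos were German Simmental x Brahman, sired by a commercially available Zebu bull, so breed and stage cannot be told apart between MII oocytes and 4-cell embryos. All oocytes came from abattoir ovaries and were freed of cumulus cells, and the embryos were grown in synthetic oviduct fluid medium. The labels do not say whether the pools of a stage came from separate collections, so spreads and p-values cover the differences between these pools.

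As background, the embryo starts with RNA stored by the oocyte and turns on its own genome in steps, and in cattle the main step falls around the 8-cell stage. The genes here code for proteins that leave the cell or sit on it. Chemokines are small secreted proteins that guide migrating cells through G protein-coupled receptors, CXCL2 through CXCR2 and the XCL proteins through XCR1. Protocadherins are calcium-dependent adhesion proteins, mucins are heavily glycosylated proteins, and MFAP5 is part of the microfibrils of the extracellular matrix.

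Levels are scaled counts, the reads assigned to a gene multiplied by a library factor that puts libraries on a common scale. One read equalled between 0.602 and 3.02 scaled counts, in libraries of 2438473 to 11971840 reads, and a scaled count is relative to the other genes of its library. In these pools fewer expressing cells and less RNA per cell cannot be told apart. The stage labels were borne out by GDF9, an oocyte growth factor (10400 ± 1554 in GV oocytes, 16.3 ± 18.7 in blastocysts, SD, n = 3), by KLF17, a factor of the activating genome (6.48 ± 5.77 at 4 cells, 9055 ± 1795 at 8 cells), and by KRT18, an epithelial keratin (13.7 ± 17.4 at 16 cells, 14790 ± 6816 in blastocysts). A pair of libraries stood apart. On the first principal component 8-cell replicate 2 lay at -68.9, between the 4-cell libraries (-124 to -114) and the other 8-cell libraries (-21.9 and above). Fewer genes were detected in 16-cell replicate 1 (11970) than in any other library. For many of the results that rest on either, the value without it is also given.

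The 10 genes fell into 2 classes by what was left in blastocysts. In 8 of them the mean blastocyst level was under 10% of the higher of the 8-cell and 16-cell means, here called shut off, and in A2ML1 and MFAP5 it was above, here called kept. Nearest to this border were PGLYRP2 with 6.58% and A2ML1 with 15.3%. Of the 10 genes, 3 had their highest mean at 8 cells (CXCL2, MUC5B and PGLYRP2) and 7 at 16 cells. Before activation, 6 had 0 reads in all 6 oocyte libraries, and 3 of these (MUC5B, PLVAP and A2ML1) also had 0 reads at 4 cells. All 10 had reads in at least 3 libraries.

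**Figure D1:**
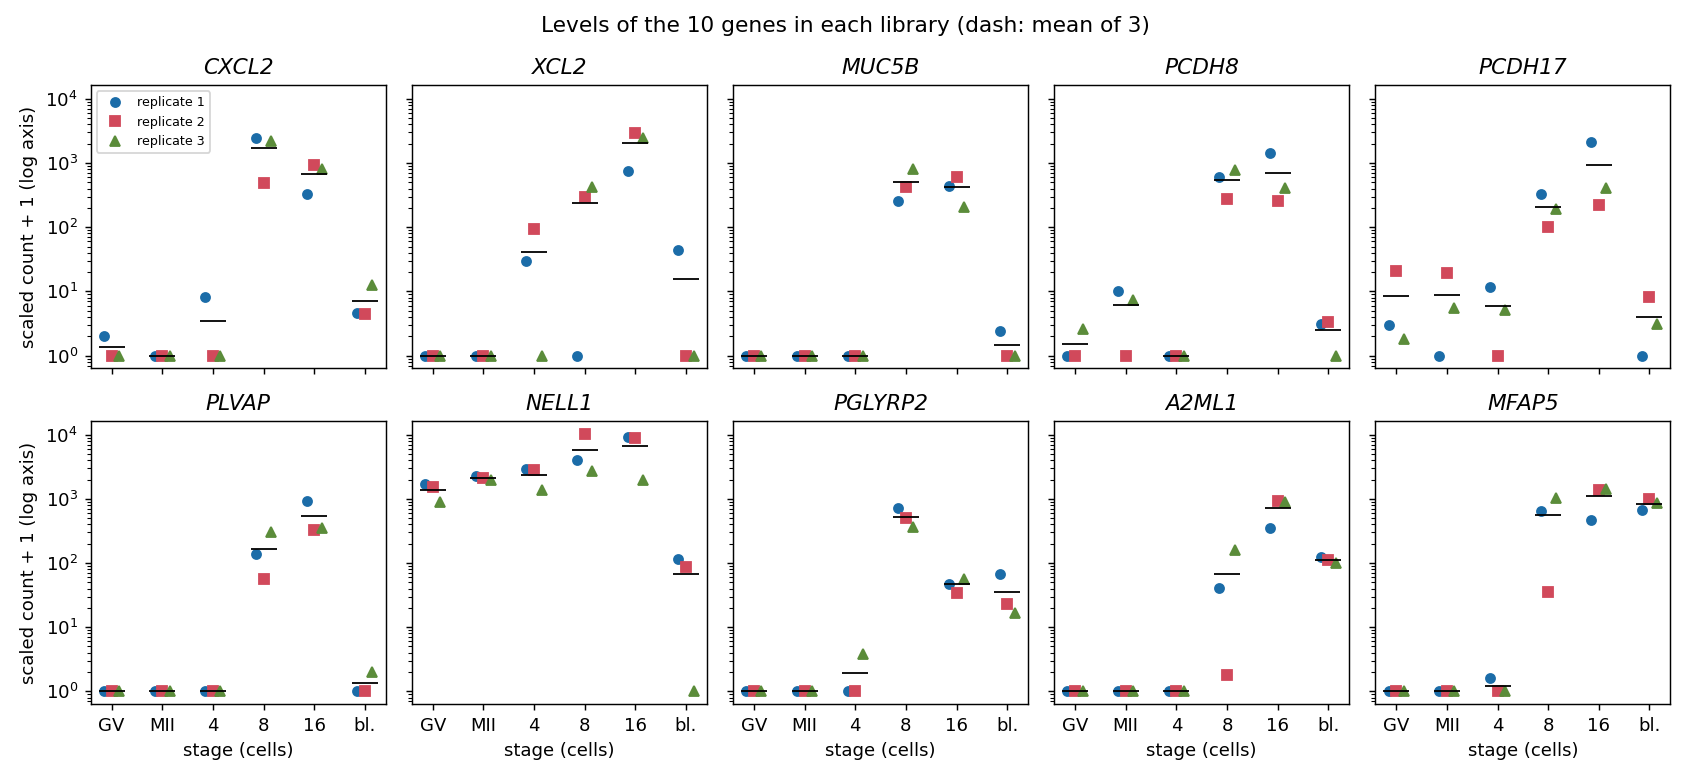
Scaled count plus 1 (log axis) of each of the 10 genes in every library by stage, with 1 symbol per replicate and a dash at the mean of 3. NELL1 is high in every oocyte library, XCL2 reaches 92.4 in a 4-cell library, the other 8 genes lie below 20 before 8 cells, and A2ML1 and MFAP5 stay up in blastocysts.

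No overlap between the libraries of 2 stages is a simple reading of these courses. All 8-cell libraries lay above all 4-cell libraries for 8 of the 10 genes, against 13% of the 17138 genes tested, and the exceptions were XCL2 and NELL1. All 16-cell libraries lay below all 8-cell libraries for PGLYRP2 alone (16.2% of all genes) and above them for XCL2, PLVAP and A2ML1 (15.4%). All blastocyst libraries lay below all 16-cell libraries for 8 of the 10 (15.5%), with MFAP5 and PGLYRP2 as the exceptions, and above them for 0 of the 10 (21.6%). The genes were chosen on these same values, so the shares are set side by side only.

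CXCL2, a chemokine that draws neutrophils, had its highest level at 8 cells. Its 8-cell libraries held 2437, 489 and 2195 scaled counts, its 16-cell libraries 324, 925 and 797, and its blastocyst libraries 3.57, 3.52 and 11.4. Before that it had 1 read in the GV oocytes, 0 in the MII oocytes and 12 reads in a single 4-cell library. The 8-cell and 16-cell libraries overlapped, because 8-cell replicate 2 was low, and the blastocyst libraries were far below both. The mean went from 1707 ± 1062 at 8 cells to 6.16 ± 4.54 in blastocysts, a level 277-fold lower, or 0.361% of the peak. Without 8-cell replicate 2 the 8-cell mean was 2316 and the blastocyst level 0.266% of it. RefSeq places 2 close relatives, CXCL3 and GRO1, beside CXCL2. These were not analysed here, and how reads that match several copies were counted is not given in the sources used here, so the level of CXCL2 may hold reads of a relative.

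The row named XCL2, a chemokine of the C class that lacks a pair of the cysteines shared by other chemokines, was uneven within stages. At 16 cells its libraries held 752, 2957 and 2416 scaled counts, at 8 cells 0, 298 and 427, at 4 cells 28.3, 92.4 and 0, and in blastocysts 43.5, 0 and 0. At 4 cells, 8 cells and in blastocysts, libraries with no read thus stood beside libraries with many. In 8-cell replicate 1 there were 0 reads of 9954859, which allows up to 2.29 scaled counts, and the 61 reads in blastocysts all came from replicate 1. The 16-cell libraries were above every other library. The 16-cell mean was 8.45-fold the 8-cell mean, and 12.6-fold without 8-cell replicate 2 and 16-cell replicate 1. The gene behind this row is not certain. The table also holds a row LOC100295210, whose RefSeq gene ID now carries the symbol XCL2, with 72 reads at 16 cells, 2 at 8 cells and 1 in blastocysts. RefSeq lists XCL1 next to XCL2, and which of the pair the row named XCL2 counts could not be settled.

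MUC5B, a gel-forming mucin of the airways and other wet surfaces, was found at 2 stages and hardly elsewhere. At 8 cells the libraries held 258, 418 and 816 scaled counts and at 16 cells 433, 611 and 205. The libraries of these 2 stages overlapped, with means of 497 ± 288 and 416 ± 204. In oocytes and 4-cell embryos it had 0 reads, and in blastocysts 2 reads in a single library. Set against the limit that 0 reads over the 3 4-cell libraries allow (3 reads, 0.744 scaled counts), the 8-cell mean was at least 668-fold higher. The 2 blastocyst reads make 0.0957% of the peak, with an exact Poisson interval (95%) of 0.0151% to 0.451% for counting error only.

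PCDH8 and PCDH17 are protocadherins outside the large gene clusters, PCDH8 being known for its induction by activity at synapses. PCDH8 held 613, 271 and 770 scaled counts at 8 cells, 1439, 254 and 413 at 16 cells and 2.14, 2.35 and 0 in blastocysts. PCDH17 held 333, 98.9 and 193 at 8 cells, 2134, 224 and 401 at 16 cells and 0, 7.04 and 2.07 in blastocysts. In both genes 16-cell replicate 1 stood far above the other 16-cell libraries, and both were down to a few reads in blastocysts, 5 in all for PCDH8 and 8 for PCDH17. PCDH8 was detected in 3 of 6 oocyte libraries with 19 reads in all and had 0 reads at 4 cells. PCDH17 was detected in 5 of 6 oocyte libraries with 60 reads and had 21 reads at 4 cells. The place of the peak rested on single libraries. The 16-cell mean of PCDH8 was 1.27-fold its 8-cell mean, and without 8-cell replicate 2 and 16-cell replicate 1 the order turned, with 8 cells 2.07-fold higher. For PCDH17 the 16-cell mean was 4.42-fold the 8-cell mean with all libraries and 1.19-fold without this pair. The blastocyst level of PCDH17 was 0.33% of its peak, and 0.972% without 16-cell replicate 1.

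PLVAP forms the diaphragms of caveolae and fenestrae in endothelial cells. It had 0 reads in oocytes and 4-cell embryos, 135, 54.8 and 298 scaled counts at 8 cells, and 935, 330 and 348 at 16 cells. In blastocysts a single read was found. Its 3 16-cell libraries all lay above its 3 8-cell libraries. The 8-cell mean of 163 ± 124 was at least 219-fold above the 4-cell limit of 0.744 scaled counts. The blastocyst level was 0.0643% of the peak (exact Poisson interval 0.00146% to 0.322%, 95%), and 0.102% without 16-cell replicate 1. Its 16-cell mean was 3.3-fold its 8-cell mean, and 1.56-fold without 8-cell replicate 2 and 16-cell replicate 1.

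PGLYRP2 is a secreted amidase that cleaves peptidoglycan of bacterial cell walls, and its peak was the briefest. Its libraries held 711, 495 and 367 scaled counts at 8 cells, 46.9, 33.2 and 55.6 at 16 cells, and 65.7, 22.3 and 15.5 in blastocysts. The fall had taken place by 16 cells, where 8.63% of the 8-cell mean was left, and a low level stayed in every blastocyst library. Before 8 cells it had 2 reads in a single 4-cell library. With 126 reads in blastocysts it is shut off by the 10% rule yet still had reads in all 3 blastocyst libraries. CXCL2, with 19 reads in blastocysts, also had reads in all 3, and MUC5B and PLVAP each had reads in 1.

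NELL1, a secreted protein with thrombospondin-type and EGF-like domains linked to bone formation, did not match its label. It was already at 1374 ± 426 scaled counts in GV oocytes, 2093 ± 157 in MII oocytes and 2382 ± 856 in 4-cell embryos, with reads in all 9 libraries of these stages. At 8 cells the libraries held 4033, 10380 and 2714 scaled counts and at 16 cells 9295, 8719 and 1936. The lowest libraries of both stages lay within the range of the 4-cell libraries (1394 to 2899). The mean at 8 cells was 2.4-fold that at 4 cells, and 1.42-fold without 8-cell replicate 2. In blastocysts the libraries held 116, 84.5 and 0, and the mean of 66.7 ± 59.8 was 99.7-fold below the 16-cell mean. NELL1 thus shared the loss by the blastocyst and not the appearance at activation. RefSeq lists 4 pseudogenes or long noncoding RNAs that overlap the span of NELL1, and reads of these cannot be told apart from its own where they overlap, since the library kit as described does not mark strand.

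A2ML1, a protease inhibitor related to alpha-2-macroglobulin, was one of the 2 genes kept. Its libraries held 39.7, 0.818 and 157 scaled counts at 8 cells, 354, 931 and 898 at 16 cells, and 122, 110 and 100.5 in blastocysts. The single read in 8-cell replicate 2 set it apart from the other 8-cell libraries, and the 3 blastocyst libraries were closely alike. The 16-cell mean of 728 ± 324 was 11.0-fold the 8-cell mean, and 9.28-fold without the pair of libraries that stood apart. Blastocysts held 111 ± 10.8 scaled counts, or 15.3% of the peak, so A2ML1 fell without being lost.

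MFAP5, also known as MAGP2, was the only one of the 10 genes whose blastocyst libraries overlapped its peak. Its libraries held 655, 34.3 and 1012 scaled counts at 8 cells, 461, 1394 and 1415 at 16 cells and 666, 983 and 856 in blastocysts. From 1 read over 9 libraries of oocytes and 4-cell embryos it reached 567 ± 495 at 8 cells, or 833 without 8-cell replicate 2. The blastocyst mean of 835 ± 160 was 76.6% of the 16-cell mean, and 59.5% without 16-cell replicate 1. Both kept genes had their lowest 8-cell level in replicate 2 and their lowest 16-cell level in replicate 1, as did CXCL2, which was shut off.

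**Figure D2:**
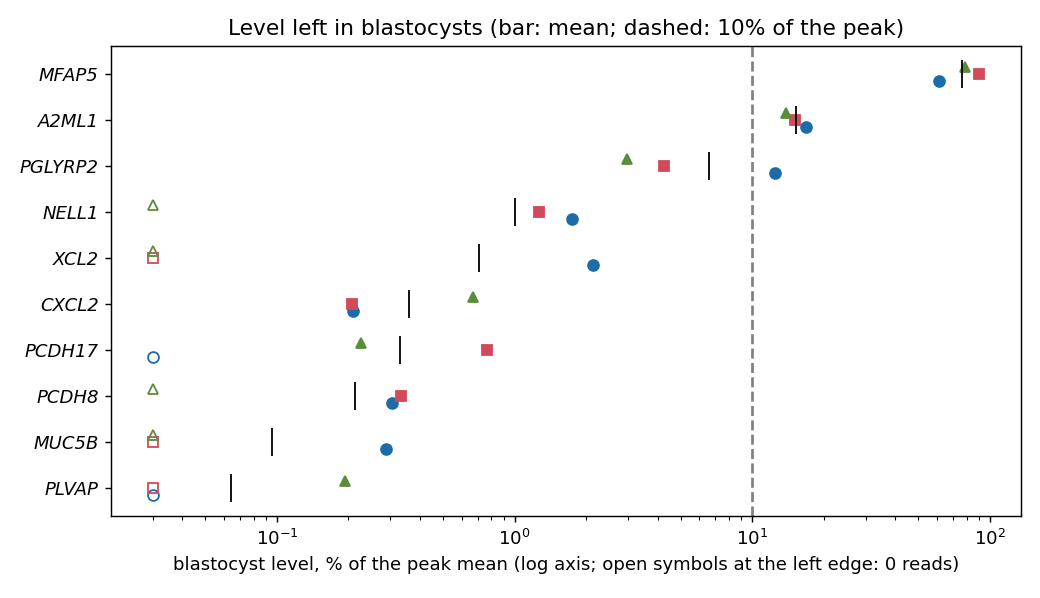
Level in each blastocyst library as a percentage of the gene's peak mean at 8 or 16 cells (log axis), with a bar at the mean, a dashed line at 10% and open symbols at the left edge for libraries with 0 reads. MFAP5 at 76.6% and A2ML1 at 15.3% lie to the right of the line, PGLYRP2 at 6.58% lies nearest to it on the left, and the other 7 means lie between 0.0643% and 1%.

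The libraries of a stage did not rank the genes alike. In 8-cell replicate 2, 6 of the 10 genes had their lowest 8-cell level (CXCL2, PCDH8, PCDH17, PLVAP, A2ML1 and MFAP5), from 0.0083 times the mean of the other 8-cell libraries for A2ML1 to 0.391 times for PCDH8. NELL1 had its highest level there, 3.08 times that mean. In 16-cell replicate 1, CXCL2, XCL2, A2ML1 and MFAP5 had their lowest 16-cell level, between 0.28 and 0.387 times the mean of the others. PCDH8, PCDH17, PLVAP and NELL1 had their highest level in the same library, between 1.75 and 6.83 times that mean. Replicate 1 of the 16-cell stage also had the highest level of the oocyte gene GDF9 among the 16-cell libraries (795 against 360 and 276), and 8-cell replicate 2 the highest among 8-cell libraries (5059 against 3241 and 2180). The part of these differences between libraries in the courses above was not tested.

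**Figure D3:**
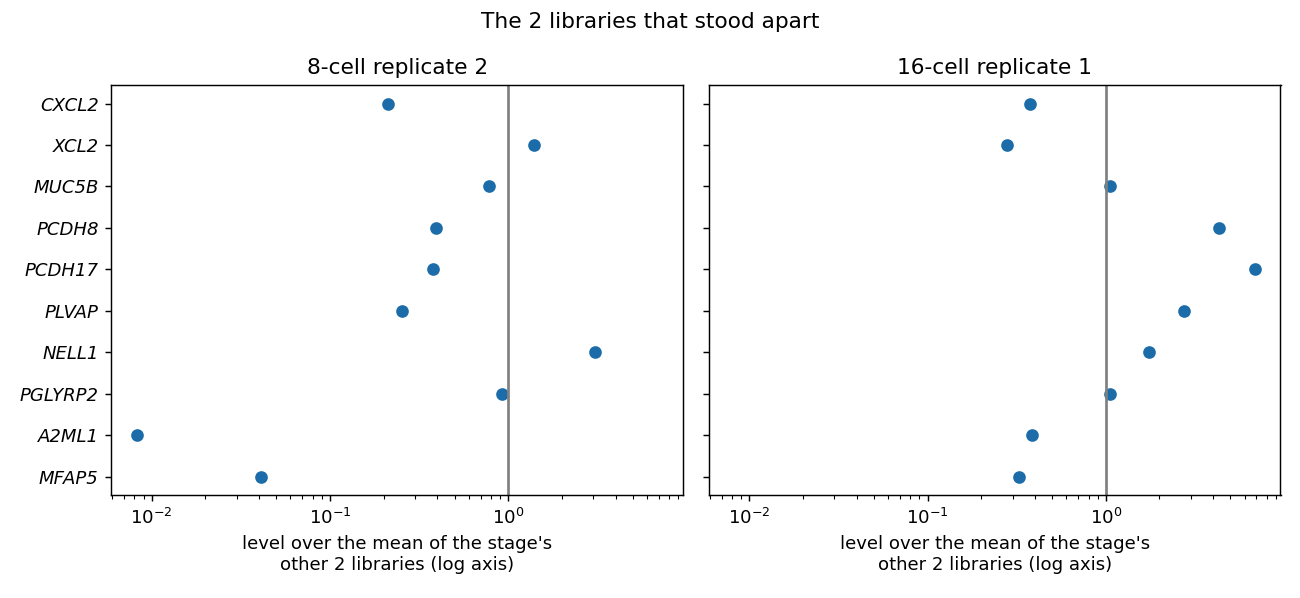
Level in 8-cell replicate 2 (left) and in 16-cell replicate 1 (right) divided by the mean of the other 2 libraries of the stage, for each of the 10 genes on a log axis. In 8-cell replicate 2 the points reach down to 0.0083 for A2ML1, and in 16-cell replicate 1 they range from 0.28 for XCL2 to 6.83 for PCDH17.

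Across the 18 libraries the genes most like one another were MUC5B and PLVAP (Pearson r = 0.975 of log2(scaled count + 1)), MUC5B with CXCL2 and with PCDH8 (both 0.958), and the kept pair A2ML1 and MFAP5 (0.956). NELL1 had r = -0.247 with MFAP5 and -0.183 with A2ML1. The libraries share their stage, so these values mostly restate the courses. Among 12278 other genes with a symbol and a stage mean of at least 20, the genes nearest to CXCL2 were ZNF41 (r = 0.968) and CT55 (0.965). TMEM37 (0.964) and DUXA (0.962) were nearest to MUC5B. TMEM37 (0.968) and ATF1 (0.954) were nearest to PCDH8, BRDT (0.932) and SMAP2 (0.915) to PCDH17, and TUT7, a terminal uridylyltransferase listed as ZCCHC6, (0.985) and SBNO1 (0.967) to PLVAP. A2ML1 was matched by the retinoic acid-binding protein gene CRABP1 (0.991) and by TTC38 (0.989), and MFAP5 by the potassium channel gene KCNT1 (0.992) and the folate receptor gene FOLR1 (0.984). For CRABP1 the means were 97.9 scaled counts at 8 cells, 1085 at 16 cells and 163 in blastocysts, and for FOLR1 837, 5041 and 2077. PGLYRP2 was nearest to MEX3C (0.955) and DDX5 (0.942), NELL1 to RAB2B (0.941) and SATB1 (0.918), and XCL2 to PATL1 (0.839) and PTGDR (0.837), the loosest matches of the 10 genes.

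Genes that work with these proteins were also tested. Their values were not part of the rule that picked the 10 genes, but the lists were drawn up with earlier results of these data known. Families, receptors and matrix partners gave 145 genes in the table, of which 116 had enough reads. They were compared with limma on the deposited log2-like values over all 18 libraries, and a Benjamini-Hochberg adjusted p under 0.05 over the 17138 genes tested counted as a rise or a fall. Differences below are on that scale, which understates the change of genes with few reads. At 8 against 4 cells, 8 of the 116 rose (6.9%, against 8.64% of all genes) and 4 fell (3.45% against 4.13%). At 16 against 8 cells, 4 rose (3.45% against 14.8%) and 16 fell (13.8% against 16.3%). In blastocysts against 16 cells, 26 rose (22.4% against 18.2%) and 16 fell (13.8% against 13.1%). The 26 include CXCR2, PF4 and CCL24, which had reads in blastocysts only and entered the test through that stage alone. The median difference was 0.20, -0.27 and 0.16 in these comparisons, against 0.00, 0.00 and 0.18 over all genes. Consecutive comparisons share the libraries of a stage. Without 8-cell replicate 2, 15 genes rose at 8 cells. Without 16-cell replicate 1, 8 rose at 16 cells, without 8-cell replicate 3, 7 did, and without 16-cell replicate 3, 2 did. Falls at 8 cells numbered 0 without 4-cell replicate 2 or 3, 1 without 4-cell replicate 1 or 8-cell replicate 3, and 2 without 8-cell replicate 1. Each of the 4 falls with all libraries (CCL1, CCL26, FBN1 and PACSIN2) was lost without any of 5 of 6 libraries.

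**Figure D4:**
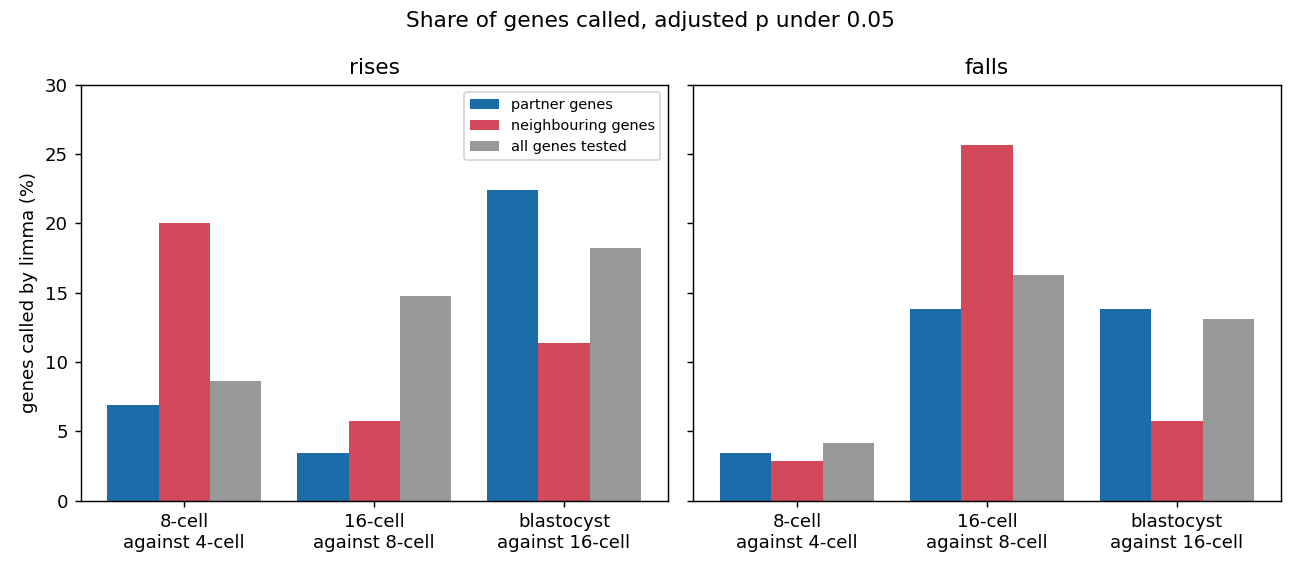
Percentage of genes called by limma as rises (left) and falls (right) in each comparison, for the 116 partner genes, the 35 genes next to the 10 genes in RefSeq order, and all 17138 genes tested. Among neighbours 20% rose at 8 cells and 25.7% fell at 16 cells, against 8.64% and 16.3% of all genes.

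Among CXC chemokines, CXCL5, a neighbour of CXCL2 in the genome with the same receptor, rose at 8 cells from 0 reads to 30.6 ± 24.9 scaled counts (difference 3.47 ± 0.76 SE, adjusted p = 0.00308), fell at 16 cells to 2.02 ± 3.49 (-2.76 ± 0.76, adjusted p = 0.00849) and rose in blastocysts to 55.9 ± 24.1 (3.91 ± 0.76, adjusted p = 0.000463). CXCL5 thus returned in blastocysts, where CXCL2 had a mean of 6.16. Of the 9 CXC ligands tested, CXCL9 fell in blastocysts from 39.8 ± 30.4 to 0 reads, PF4 rose there from 0 reads to 6.28 ± 3.65, and CXCL16 rose at 16 cells from 6.33 ± 5.49 to 45.4 ± 23.6 (adjusted p = 0.0157, lost without 8-cell replicate 2, 0.108). PF4 had reads in blastocysts only and entered the test through those reads alone. Of 13 C, CC and CX3C ligands, CCL25 fell at 16 cells from 1216 ± 309 to 51.6 ± 49.8 (-4.78 ± 0.58, adjusted p = 1.01e-05). In blastocysts 4 rose (30.8%, against 18.2% of all genes) and 1 fell (7.69% against 13.1%). Among the rises were CCL24 from 0 reads to 40.9 ± 20.2, CCL26 from 0 reads to 98 ± 66.7 and CCL1 from 0.662 ± 1.15 to 80.3 ± 34.6. CCL24, like PF4, had reads in blastocysts only and entered the test through them. The fall was that of CCL19, from 110.5 ± 23.35 to 3.91 ± 6.77 (-4.70 ± 0.86, adjusted p = 0.00028). CCL19 had risen at 16 cells from 15.6 ± 22 at 8 cells (3.48 ± 0.86, adjusted p = 0.00434). CCL1 and CCL26 were also called lower at 8 cells (adjusted p = 0.0485 and 0.0467), calls that were lost without any of 5 of 6 libraries.

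Chemokine receptors were not called at 8 cells: limma called 0 of 13, with 1 at an unadjusted p under 0.05, where 8.64% of all genes rose and 4.13% fell. CXCR2, the receptor of CXCL2 (listed as IL8RB), rose in blastocysts from 0 reads at 16 cells to 22.4 ± 12.4 (3.42 ± 0.45), the stage at which CXCL2 had gone down. CXCR2 had reads in blastocysts only and entered the test through those reads alone, so its rise is given as a description. CXCR4, the receptor of CXCL12, fell in blastocysts from 741 ± 1024 to 0.238 ± 0.412 (-6.94 ± 0.78, adjusted p = 1.04e-06). Its 16-cell mean was 151 without 16-cell replicate 1, and the call held without each library in turn. CCR8 fell at 16 cells from 224 ± 89.8 to 7.46 ± 11.9, and CXCR6 rose in blastocysts from 1.01 ± 1.75 to 12.7 ± 2.55. In all, 5 of the 13 rose (38.5%, against 18.2% of all genes) and 1 fell (7.69% against 13.1%) in blastocysts. The 5 include CXCR2.

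Among 10 other protocadherins, PCDH10 rose at 8 cells with PCDH8 and PCDH17, from 0.932 ± 1.61 to 176 ± 121 (5.46 ± 0.79, adjusted p = 5.11e-05). PCDH11X also rose there, from 0 reads to 25.1 ± 30.7 (adjusted p = 0.024, lost without 4 of 6 libraries, among them 8-cell replicate 2, where the mean becomes 7.39). In blastocysts PCDH1 rose from 41.6 ± 37.7 to 511 ± 189 (4.50 ± 1.18, adjusted p = 0.00568) and PCDH18 fell from 34.6 ± 21.8 to 2.76 ± 4.79 (adjusted p = 0.0336, lost without 4 of 6 libraries). The other 6 did not pass in any of the 3 comparisons.

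The list of mucins had 11 genes tested, among them MCAM and CD164, which have no MUC name. Limma called 0 of the 11 at 8 cells (2 at an unadjusted p under 0.05), where 8.64% of all genes rose and 4.13% fell. At 16 cells 2 fell (18.2%, against 16.3% of all genes), and in blastocysts, where MUC5B had 2 reads, 5 rose (45.5% against 18.2%). MUC20, a membrane mucin, rose there from 0 reads to 265 ± 94.6 (6.82 ± 0.55, adjusted p = 1.27e-08). MUC16 rose from 3.21 ± 5.56 to 185 ± 41.7 (5.48 ± 0.70, adjusted p = 5.24e-06), and MUC1 from 0 reads to 29.1 ± 20.7. MUC13 rose in blastocysts from 0 reads to 28.5 ± 14.9, and its fall at 16 cells (adjusted p = 0.0453) was lost without any of 5 of 6 libraries.

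For NELL1, the receptors ROBO3 and ROBO1 fell in blastocysts, ROBO3 from 171 ± 110 to 2.42 ± 4.19 (-5.30 ± 1.05, adjusted p = 0.000585) and ROBO1 from 292 ± 218 to 73.6 ± 27.9 (adjusted p = 0.00403, against no call with voom). ROBO1 had also fallen at 16 cells, from 1213 ± 415. The integrin subunit ITGA4 fell at 16 cells from 388 ± 213 to 48.3 ± 60.2, and again in blastocysts to 3 ± 4.6 (adjusted p = 0.0102, lost without 16-cell replicate 3 or blastocyst replicate 2). ITGA5 rose in blastocysts from 71.1 ± 62.1 to 3035 ± 939 (6.14 ± 1.05, adjusted p = 0.000139). Its rise at 16 cells (adjusted p = 0.0327) was lost without 8-cell replicate 2, 16-cell replicate 2 or 16-cell replicate 3.

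In the family of A2ML1, complement C3 rose at 8 cells from 3.13 ± 3.55 to 370 ± 169 (6.03 ± 0.70, adjusted p = 3.16e-06), C5 fell at 16 cells from 250.3 ± 182.6 to 7.68 ± 8.99 (157 and 2.5 without 8-cell replicate 2 and 16-cell replicate 1), and A2M itself rose in blastocysts from 57.2 ± 43.6 to 1753 ± 544 (5.20 ± 1.01, adjusted p = 0.000494). LRP1, the endocytic receptor of A2M, rose at 16 cells from 150 ± 137 to 1089 ± 1189 (adjusted p = 0.0119) and fell in blastocysts to 71.3 ± 48 (adjusted p = 0.0151). The rise was lost without 8-cell replicate 2 or 16-cell replicate 3 and the fall without 16-cell replicate 3 or blastocyst replicate 1.

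Among 23 genes of microfibrils and elastic fibres, FBLN2 rose in blastocysts from 1.67 ± 1.54 to 995 ± 86.7 (7.81 ± 1.13, adjusted p = 2.13e-05), where MFAP5 was kept. FBLN5 fell there from 113 ± 36.5 to 0.476 ± 0.824 (-5.27 ± 0.51, adjusted p = 1.26e-07), EFEMP1 from 38.5 ± 24.2 to 0.345 ± 0.598, and MFAP1, a splicing factor despite its name, from 1840 ± 474 to 398 ± 53.2. In all, 3 of the 23 rose in blastocysts (13%, against 18.2% of all genes), 4 fell there (17.4% against 13.1%) and 4 fell at 16 cells (17.4% against 16.3%). TGFB2 was 1 of these 3 rises, and its call was lost with the replicate number as a block (adjusted p = 0.0508), with voom (0.0582), with library medians set equal (0.0832) and without any of 5 of 6 libraries (up to 0.203).

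In the list of peptidoglycan recognition and sensing, PGLYRP1, a relative of PGLYRP2, rose at 8 cells from 0 reads to 16.8 ± 11.8 (2.97 ± 0.61, adjusted p = 0.00195). PGLYRP3 rose in blastocysts from 0 reads to 6.2 ± 6.87 (adjusted p = 0.00397, against no call with voom), and the sensor NOD1 fell there from 249 ± 326 to 16.6 ± 12.2. CD14 rose in blastocysts on 9 reads (adjusted p = 0.0147, lost without blastocyst replicate 2, with voom and with library medians set equal).

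Of the 11 tested partners of PLVAP, VEGFA, which induces PLVAP in endothelium, rose at 8 cells from 3.47 ± 1.93 to 180 ± 167 (4.27 ± 1.01, adjusted p = 0.00637), with an 8-cell mean of 85.6 without 8-cell replicate 2. CAV1, the main caveola protein, rose in blastocysts from a mean of 1.32 to a mean of 29.6 (3.13 ± 0.62, adjusted p = 0.000557), and the VEGF receptor FLT1 fell there from 282 ± 157 to 35.2 ± 31. PACSIN2, a membrane-bending protein of caveolae, fell at 16 cells from 832 ± 200 to 213 ± 107 and rose in blastocysts to 2474 ± 483 (3.62 ± 0.34, adjusted p = 1.08e-07). Its fall at 8 cells (adjusted p = 0.0445) was lost without any of 5 of 6 libraries.

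PLVAP and the chemokines are best known from endothelium and leukocytes, and the marker genes of these cells, with those of cumulus cells and sperm, were read in the same libraries. KDR and CD14 are also among the partner genes. Of 12 endothelial markers, 5 were at 0 reads at 8 cells and 5 at 16 cells, CLDN5 and SOX17 at both. Their summed level was 1249 to 2289 scaled counts over the 8-cell libraries and 364 to 414 over the 16-cell libraries, where PLVAP was highest, and TEK and KDR, also found in every oocyte stage, made up most of it. PECAM1 had 0 reads at 16 cells, and CDH5 had 94.8 scaled counts there. Of 12 leukocyte markers, 5 were at 0 at each of these stages, and the summed level (816 to 1467 and 731 to 2168) was mostly CSF1R, which oocytes also held. PTPRC, the pan-leukocyte gene, had 0 reads at 8 cells and 9 reads at 16 cells. The macrophage gene CD68 went from 1.61 scaled counts at 4 cells to 30.5 at 8 cells and 236 at 16 cells. The lysozyme gene LYZ went from 0.201 to 23.7 and 15.2, and CORO1A from 0 at 4 and 8 cells to 16.1. Going the other way, CD3E went from 24.9 to 7.18 and 0, and CD3D from 6.35 to 0 at both stages. LCP1 went from 96.3 to 107 and 19.4. CD2, ITGAM, CD14 and CD79A were at most 2.17 scaled counts at these 3 stages. The 16 cumulus and granulosa markers summed to 2539 to 4113 at 8 cells and 736 to 1721 at 16 cells, and 4-cell embryos held 2979 to 4023. At 8 and 16 cells 4 and 1 of them were at 0 reads, FOXL2 at both stages. Most of the sum was STAR, HAS2 and VCAN, which oocytes also held. These were lower at 16 than at 8 cells, as were CYP19A1, GREM1 and NR5A1. Other markers were higher at 16 cells, among them CYP11A1 (0 to 147 scaled counts), HSD3B1 (9.18 to 23.2), AMHR2 (0.937 to 15.5) and TNFAIP6 (8.21 to 25.25). The 6 sperm markers summed to at most 53.4 at 8 cells and 16.8 at 16 cells, with PRM1 at 0 and TNP1 at 95 reads at 8 cells, after 0 reads before that stage. In blastocysts the sperm markers summed to 85 to 1094, with means of 429 for TNP1 and 24.3 for PRM1. The part of other cells in the results was not tested.

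The genes on either side of the 10 in RefSeq order were also tested. Taking 3 protein-coding genes on each side gave 54 genes, 42 with a row in the table and 35 with enough reads. At 8 against 4 cells, 7 of the 35 rose (20%, against 8.64% of all genes) and 1 fell (2.86% against 4.13%). At 16 against 8 cells, 2 rose (5.71% against 14.8%) and 9 fell (25.7% against 16.3%). In blastocysts 4 rose (11.4% against 18.2%) and 2 fell (5.71% against 13.1%). PF4, with reads in blastocysts only, is among the 4 rises. The median differences were 0.10, -0.21 and 0.29, against 0.00, 0.00 and 0.18 over all genes. The smaller counts rested on single libraries. Falls at 8 cells numbered 0 without 4-cell replicate 2 and 2 without 4-cell replicate 3 or 8-cell replicate 1. Rises at 16 cells numbered 1 without 8-cell replicate 1, 8-cell replicate 2 or 16-cell replicate 3, and 4 without 8-cell replicate 3. In blastocysts, rises numbered 2 without blastocyst replicate 2, and falls 1 without 16-cell replicate 3, blastocyst replicate 1 or blastocyst replicate 2.

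A2ML1 and MFAP5 lie close together, with RIMKLB and a gene without a symbol between them. RIMKLB, a ligase that makes N-acetylaspartylglutamate, rose at 8 cells from 1.47 ± 1.51 to 392 ± 376 (6.13 ± 0.80, adjusted p = 1.45e-05) and at 16 cells to 1712 ± 453 (2.49 ± 0.80, adjusted p = 0.0224, lost without 8-cell replicate 1, 8-cell replicate 2 or 16-cell replicate 3). In blastocysts it held 2231 ± 208. All 3 genes were thus near 0 before 8 cells, high at 16 cells and found in every blastocyst library. Further out the courses differed. M6PR, a mannose 6-phosphate receptor, was found at every stage and rose at 16 cells from 511 ± 155 to 1101 ± 137, a call lost without 8-cell replicate 2. PHC1, a Polycomb protein, fell there from 1204 ± 491 to 384 ± 126. GDF3, a TGF-beta family ligand, fell at 16 cells from 67.6 ± 51 to 2.68 ± 3.08 (-3.48 ± 0.73, adjusted p = 0.00121). KLRG1 and APOBEC1 had at most a few reads.

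**Figure D5:**
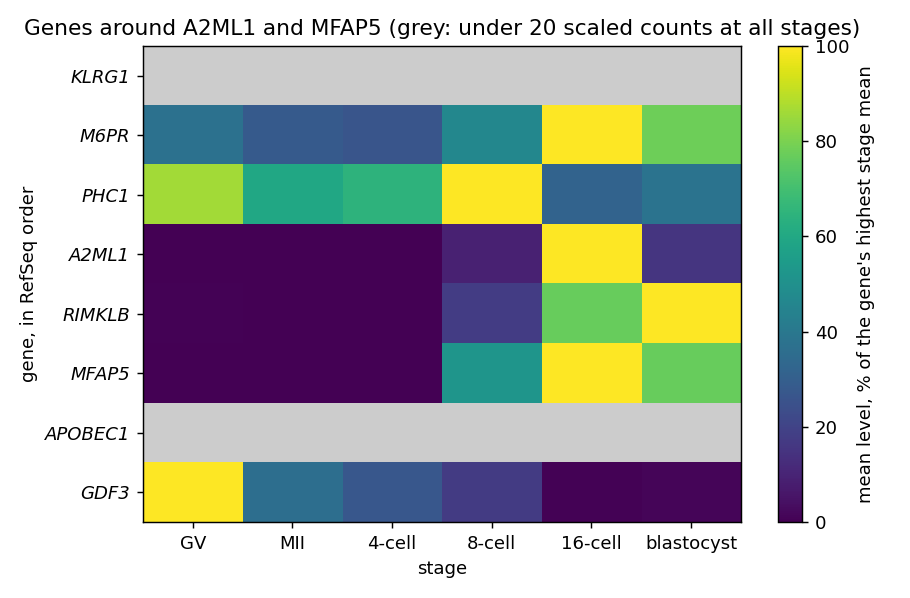
Mean level at each stage as a percentage of the gene's own highest stage mean, for A2ML1, MFAP5 and 6 genes around them in RefSeq order, with grey for genes under 20 scaled counts at all stages. A2ML1, RIMKLB and MFAP5 are near 0 before 8 cells, and in blastocysts A2ML1 is at 15.3% of its peak and MFAP5 at 76.6%, while GDF3 is highest in GV oocytes and PHC1 at 8 cells.

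Next to PLVAP, GTPBP3, an enzyme of mitochondrial tRNA modification, rose at 8 cells from 1.81 ± 3.13 to 107 ± 103 (4.51 ± 0.92, adjusted p = 0.00181) and ANO8, of the anoctamin family, from 1.86 ± 3.23 to 80 ± 34.3 (4.44 ± 0.85, adjusted p = 0.00103). In blastocysts, where PLVAP had 1 read, GTPBP3 held 220 ± 135 and ANO8 70.3 ± 71.7 scaled counts. Neither was called there against 16 cells, so the loss of PLVAP was not shared. Next to PGLYRP2, RASAL3, a Ras GTPase-activating protein, went up at 8 cells and down at 16 cells, as PGLYRP2 did. It rose at 8 cells from 1 read to 104 ± 115 (4.80 ± 0.96, adjusted p = 0.00145) and fell at 16 cells to 11.2 ± 19.4 (-3.69 ± 0.96, adjusted p = 0.00589). Its 8-cell mean was 37.9 without 8-cell replicate 2, and both calls held. All of its 16-cell reads came from 16-cell replicate 1. Without that library its 16-cell mean was 0, below the blastocyst mean of 6.53 ± 6.24. Next to NELL1, the vesicular glutamate transporter gene SLC17A6 fell in blastocysts from 59.7 ± 36.5 to 0.476 ± 0.824 (-4.29 ± 0.80, adjusted p = 0.000336), as NELL1 went down. Its rise at 8 cells (adjusted p = 0.0398) was lost without 4 of 6 libraries and with library medians set equal. Other neighbours took another course. The sodium pump subunit ATP1B1, near XCL2, fell at 16 cells from 173 ± 14.8 to 28.6 ± 31.5 (-3.04 ± 0.66, adjusted p = 0.00167), the stage at which XCL2 was highest, and ELF1, near PCDH8, fell there from 2715 ± 569 to 603 ± 175 (-2.19 ± 0.29, adjusted p = 2.04e-05). In RefSeq, 0 other protein-coding genes overlap the spans of the 10 genes.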

How the data were processed

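The authors deposited 1 table of log2-like, variance-stabilised values for 21668 genes in 18 libraries. The submitters' processing notes name CASAVA 1.6, TopHat2 2.0.3, HTSeq, DESeq and build UMD3.1; tool roles, annotation and the treatment of multiply matching reads are not stated there. Per the labels' protocols, cDNA was primed with random and poly(A) primers and amplified isothermally, so reads are not molecules.

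The transformation was inverted in closed form; all 390024 values gave whole reads (tolerance 1e-08). Factors have a geometric mean of 1. Genes with a read in 3 or more libraries entered the test, made with limma 3.58.1 (R 4.3.3; stage model, variance trend, tested on simulated reads), two-sided. Python 3.11.15 made tables and plots. The 10 genes and the lists were chosen with earlier results of these data known.

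Genes named were the 10, up to 4 called genes of each list and 10 called neighbours by smallest p, the 2 genes most like each of the 10, and GDF9, KLF17 and KRT18. TGFB2, FBN1, CCL19, MCAM, CD164, LOC100295210, KLRG1, APOBEC1, M6PR and PHC1 and single cell markers were named after their values were seen. Deviations of equal replicate numbers from their stage means correlated at 0.108 to 0.134 between 16-cell embryos and blastocysts, and at 0.0167 to 0.107 in the other comparisons. Each library of the later stage correlated best with the earlier library of its own number. Whether equal numbers pair the samples is thus not settled, and the main fits did not pair them. Symbols came from RefSeq (ARS-UCD2.0, 18745 rows matched), as did the order and overlap of genes; the files use another build, so no coordinates are given.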

Additional observations from a re-analysis of the deposited data

How the results depend on the processing

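The number of genes shut off was 8 with CPM of recovered reads, with medians in place of means, without each 8-cell, 16-cell or blastocyst library in turn, and without the 2 libraries that stood apart (a setting added after seeing the data). It was 7 with a border of 5% and 9 with 25%. Of 100 recomputed blastocyst percentages, 5 moved by more than the SD: PCDH17 (0.972%), A2ML1 (12.1%) and MFAP5 (59.5%) without 16-cell replicate 1, and A2ML1 without 16-cell replicate 2 (17.7%) or 3 (17.3%).

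Counts of calls moved where they were small. Partner genes that fell at 8 cells numbered 2 without the filter on reads and 2 with the replicate block, against 4. Neighbours that fell at 8 cells numbered 2 with voom and 2 with library medians set equal, against 1, and neighbours that rose at 16 cells numbered 4 with the replicate block, against 2. Without both libraries that stood apart, 16 partner genes rose at 8 cells (8 with all), 9 rose at 16 cells (4 with all), and 4 neighbours fell in blastocysts (2 with all).

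Leaving out 1 library of the compared stages gave these ranges. For partner genes there were 6 to 15 rises and 0 to 4 falls at 8 cells, 2 to 8 rises and 13 to 21 falls at 16 cells, and 19 to 34 rises and 12 to 18 falls in blastocysts. For neighbours there were 5 to 9 rises and 0 to 2 falls at 8 cells, 1 to 4 rises and 7 to 10 falls at 16 cells, and 2 to 4 rises and 1 to 3 falls in blastocysts. The cause was not tested. Of 95 calls of single genes, 32 were lost without at least 1 library, and in no setting run did a called difference change sign. PF4, CCL24 and CXCR2 are not counted among the 32. Without any 1 blastocyst library they had too few libraries with reads to be tested, so their dependence on these libraries was not measured. With the replicate block, CCL1 and CCL26 lost their call at 8 cells and TGFB2 in blastocysts, and no other call was lost. In each comparison every later library correlated best with the earlier library of its own number. The correlations were weak (0.0167 to 0.134), so whether the numbers pair the samples is not settled. Depth limits the genes with few reads, such as PLVAP and MUC5B in blastocysts, where 3 reads in 1 library are 2.14 to 3.52 scaled counts.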
